A study of Homo sapiens with 8 samples.

Results

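SR proteins and heterogeneous nuclear ribonucleoproteins (hnRNPs) are large families of RNA-binding proteins that steer splicing, and their transcripts were followed in DLD1 cells that overexpress the tRNA methyltransferase TRMT6/61A. The genes were taken from the deposited count table by annotation alone: every row with the GENCODE biotype protein_coding and a symbol made of SRSF and a number, or beginning with HNRNP. This gave 39 of the 58302 rows, 12 SRSF and 27 HNRNP genes. DLD1 is a human colorectal cancer line. In the OE-WT group, DLD1 cells were stably transduced by lentivirus with wild-type TRMT6 and TRMT61A, the subunits of the enzyme that writes m1A in tRNA. The labels call this genotype TRMT6/TRMT61A overexpression, whereas the design text of the series names the genes respectively, as if in separate lines. CTRL cells, labelled WT, carried the empty vector in the same line. Each group had 2 libraries, each run on 2 lanes and given as 1 column of the table, and neither the labels nor the methods say whether the lines were single clones. RNA came from the cleared lysate of cycloheximide-washed cells. The labels give selection for poly(A) and a stranded kit, whereas the methods of the study give removal of ribosomal RNA and another kit, so it is not settled whether transcripts without a poly(A) tail were counted. In both cases the values are levels of transcripts, not of proteins and not of splicing itself.

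SR proteins bind short purine-rich and related elements in exons through RNA recognition motifs and recruit the splicing machinery through arginine- and serine-rich tails, which SRPK and CLK kinases phosphorylate. The hnRNPs coat nascent transcripts and often act in the opposite direction, blocking splice sites or looping out exons, and many also serve in export, stability and translation of mRNA. Genes of both families commonly restrain their own output by splicing their transcripts to forms that are removed by nonsense-mediated decay. Both families are abundant in dividing epithelial cells, and several members are raised in colorectal tumours.

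OE-WT yielded 10460284 and 10327498 counts and CTRL 12379671 and 12063433. Levels are given as CPM (counts over the library's total in the tested genes, times 1000000) scaled by trimmed mean of M values (TMM). Over the library's full total and before this scaling, 3 counts correspond to 0.242 to 0.290 CPM, counting error only. TRMT6 was at 211 and 181 CPM in OE-WT and at 52.6 and 55.4 CPM in CTRL, and TRMT61A at 138 and 130 CPM against 58.9 and 56.8 CPM, so both genes followed the labels. Colon epithelial markers summed to 12100 and 12500 CPM in OE-WT and 11100 and 10900 CPM in CTRL, and all 11 had counts, but the markers did not move as one: 2 of the 10 tested were higher and 4 lower in OE-WT. Fibroblast markers (8 genes, COL1A2, COL3A1 and DCN at 0 in every library) summed to between 4.52 and 5.64 CPM, immune markers (6 genes, CD3E at 0) to between 0.403 and 0.544 CPM, and endothelial markers (4 genes, CDH5 and KDR at 0) to between 0.590 and 2.33 CPM. Nothing in the labels says that the 2 libraries of a group came from separate transductions, and p-values therefore measure only the spread between these libraries.

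To show the kind of sequence these genes start from, the 250 bases before the start site are printed for SRSF1 and HNRNPU, which had the largest called fold change in each family, for HNRNPA3, in which several matches overlap, and for SRSF7, whose level was not called different. They are RefSeq sequences of GRCh38.p14, read 5′ to 3′ on the gene's strand. Capitals mark a match, on either strand, to any of 7 motifs. The CCAAT box, a common element of housekeeping promoters, was searched by the letters in its name. The GC box to which Sp factors bind was read as GGGCGG. For the core of the half-site that answers to cyclic AMP, here called the CRE core, the letters were TGACG. The E-box to which MYC binds together with MAX was CACGTG. The TATA box of the general transcription machinery was spelled TATAAA. Sites for the ETS family of factors were taken as CCGGAAG. The site of the factor YY1, frequent in genes of translation, was AAGATGGC. Where matches overlap, as the E-box and both CRE cores do at HNRNPA3, each was counted.
SRSF1, chr17:58007247-58007496, strand -: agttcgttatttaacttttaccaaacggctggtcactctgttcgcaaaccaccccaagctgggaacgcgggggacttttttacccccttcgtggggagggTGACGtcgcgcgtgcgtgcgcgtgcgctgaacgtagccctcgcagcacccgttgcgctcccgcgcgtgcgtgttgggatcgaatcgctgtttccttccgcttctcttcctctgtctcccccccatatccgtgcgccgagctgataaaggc
HNRNPU, chr1:244864544-244864793, strand -: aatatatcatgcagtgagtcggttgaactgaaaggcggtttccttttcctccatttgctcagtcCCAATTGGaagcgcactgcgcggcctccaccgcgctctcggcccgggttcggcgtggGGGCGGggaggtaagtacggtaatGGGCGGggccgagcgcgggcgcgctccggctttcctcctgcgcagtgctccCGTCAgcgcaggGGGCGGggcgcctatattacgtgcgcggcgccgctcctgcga
HNRNPA3, chr2:177212544-177212793, strand +: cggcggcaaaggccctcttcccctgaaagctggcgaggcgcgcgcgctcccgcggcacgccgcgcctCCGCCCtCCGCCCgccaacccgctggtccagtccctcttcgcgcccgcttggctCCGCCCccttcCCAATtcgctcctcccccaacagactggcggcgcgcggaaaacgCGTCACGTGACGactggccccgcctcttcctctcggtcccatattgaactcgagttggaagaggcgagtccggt
SRSF7, chr2:38751495-38751744, strand -: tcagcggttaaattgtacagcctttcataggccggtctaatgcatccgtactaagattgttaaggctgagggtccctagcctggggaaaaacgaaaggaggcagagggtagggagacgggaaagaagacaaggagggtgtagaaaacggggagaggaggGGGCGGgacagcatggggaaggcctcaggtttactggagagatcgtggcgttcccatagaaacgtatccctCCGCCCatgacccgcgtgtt
The SRSF1 window held 1 match, that of HNRNPU 6, that of HNRNPA3 7 and that of SRSF7 2. The number of matches did not sort the genes by their calls: HNRNPLL, not called, also had 7, while HNRNPH1, SRSF9 and SRSF10, all called higher, had 0. Of the 39 genes, 35 had an entry, and 30 of these were among the genes tested below. The CCAAT box was found in 15 of the 30 windows (50%) and in 32% of all 35116 promoters of the same length, the GC box in 19 (63.3%) against 42.6%, and the CRE core in 13 (43.3%) against 21.2%. The E-box was in 6 (20%) against 6.34%, the TATA box and the ETS site each in 5 (16.7%) against 10.7% and 8.52%, and the YY1 site in 0 against 1.36%. The median GC content of the windows was 65.2%, against 58.0% for all promoters. A match is a description of letters in this window and was not tested as a binding site.

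Of the 39 genes, 33 passed the filter on low counts (11 SRSF and 22 HNRNP) and were tested with all 14133 expressed genes. Transcripts of 20 rose in OE-WT and those of 0 fell, by an edgeR quasi-likelihood fit in which p was adjusted after Benjamini and Hochberg over all genes and had to stay below 0.05. At an unadjusted p below 0.05 there were also 0 lower genes, and DESeq2 called 12 higher and 0 lower. Over all genes tested, 9.44% were called higher and 11.6% lower, so that 60.6% of the tested splicing proteins stood against 9.44%. These shares compare genes of unequal level, with a median of 149 CPM for the members and 12.7 CPM for all genes tested. The part of level in the shares was not tested. The HNRNP genes carried most of the calls, with 16 of 22 (72.7%), and the SRSF genes had 4 of 11 (36.4%). The changes were small. Called genes were 1.16- to 1.60-fold higher, and 0 of the 33 passed the study's own thresholds of an unadjusted p below 0.05 with an absolute log2 fold change above 1, which 3.15% of all genes passed. The median log2 fold change was 0.33 for HNRNP and 0.08 for SRSF genes, against 0.01 for all genes tested, and the SRSF median alone turned negative under other scalings, to -0.02 with library size only and -0.03 with a GC trend removed.

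**Figure D1:**
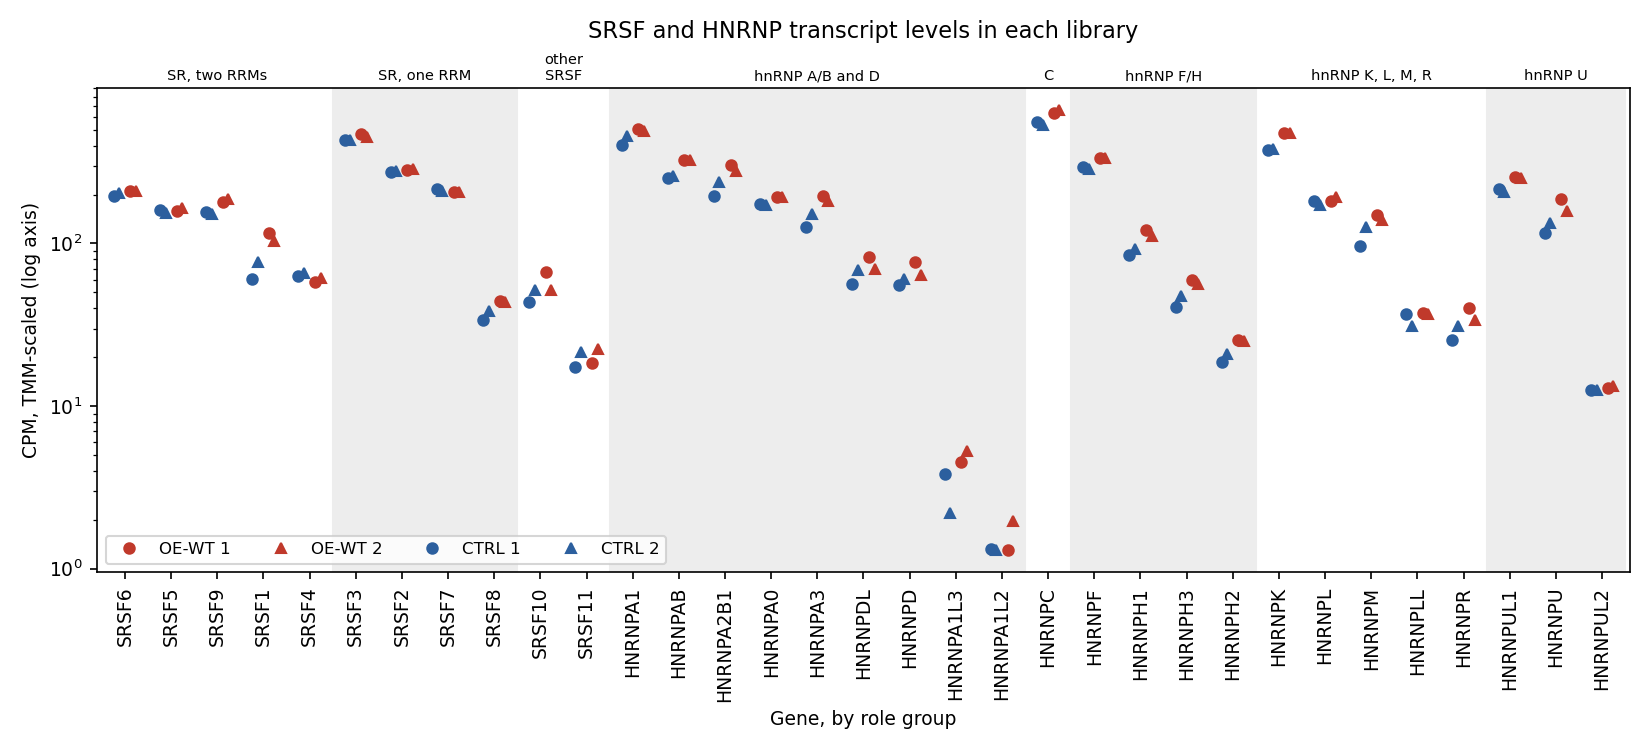
TMM-scaled CPM (log axis) of the 33 tested genes in each library, grouped by role and ordered within a role by the CTRL mean. Red marks are OE-WT, blue marks CTRL, circles library 1 and triangles library 2. In 28 genes both red marks lie above both blue marks, in SRSF4 and SRSF7 below.

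Both OE-WT libraries lay above both CTRL libraries in 28 of the 33 genes (7 SRSF and 21 HNRNP), where 29.9% of all genes did so. They lay below them in 2 genes, SRSF4 and SRSF7, where 4271 of the 14133 genes tested did so. With 2 libraries against 2, the smallest two-sided exact permutation p for a single gene is 0.333, so single genes rest on the spread pooled by edgeR across all genes. The gap between groups was widest between the libraries numbered 1: among the 20 called genes, CTRL 1 was below CTRL 2 in 16 and OE-WT 1 above OE-WT 2 in 17.

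**Figure D2:**
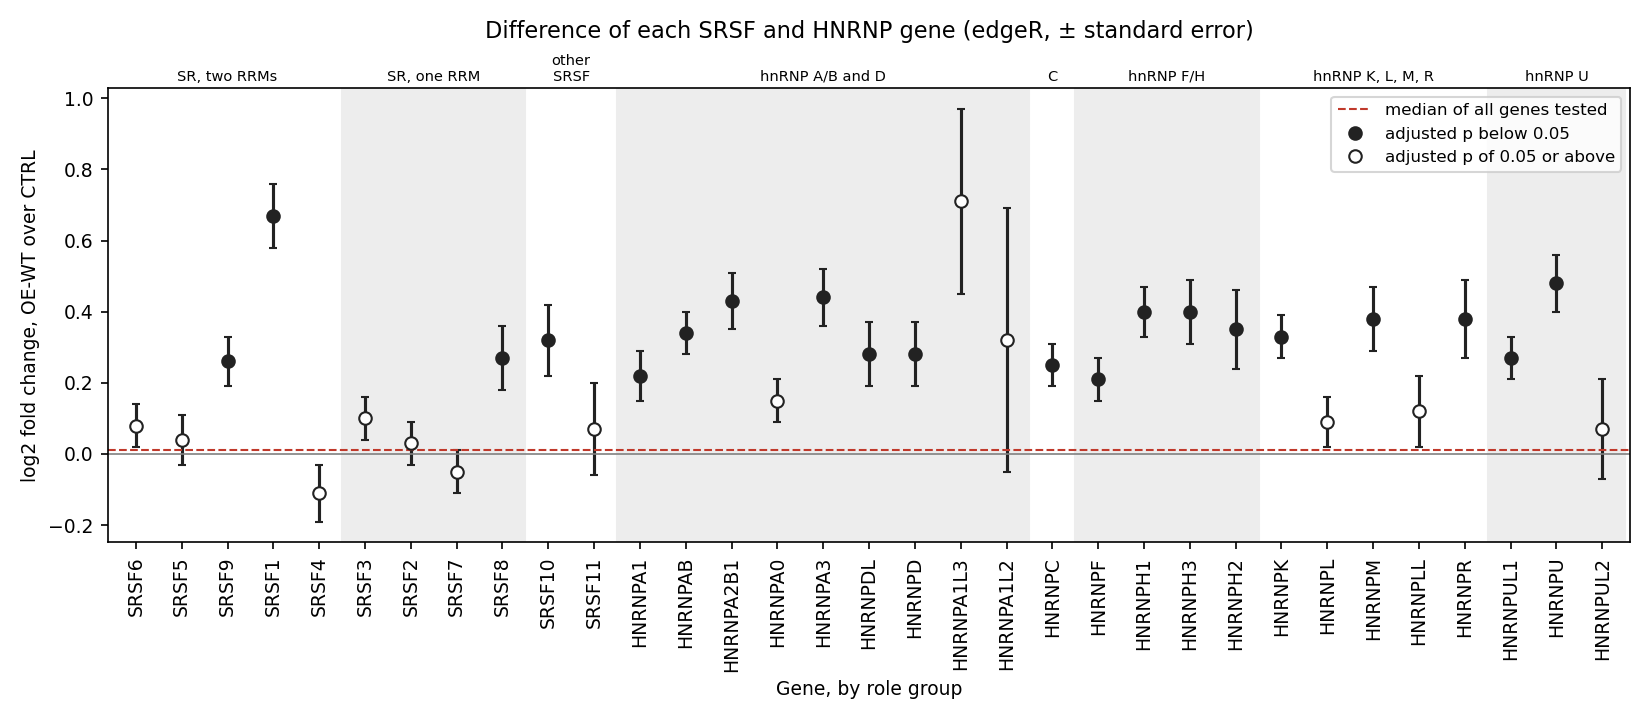
Log2 fold change of OE-WT over CTRL for the same 33 genes with its standard error (bars), from edgeR. Filled points have an adjusted p below 0.05, open points do not, and the dashed line is the median of all genes tested (0.01). All 20 filled points lie above the line, SRSF1 highest at 0.67, and the open points of SRSF4 and SRSF7 lie below 0.

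Among the SR proteins with a pair of RNA recognition motifs, SRSF1 and SRSF9 rose, and SRSF4, SRSF5 and SRSF6 were not called. SRSF1 (ENSG00000136450, chr17:58000919-58007346, minus strand, GRCh38), the prototype of the family and a proto-oncogene, was at 116 and 104 CPM in OE-WT and at 60.6 and 77.2 CPM in CTRL. The groups were well apart, although the CTRL libraries also differed from each other. Its log2 fold change was 0.67 ± 0.09 (SE), with an edgeR adjusted p of 1.6e-05, the largest change among the called genes. SRSF9, the closest relative of SRSF1, was at 180 and 188 CPM against 157 and 151 CPM, a log2 fold change of 0.26 ± 0.07 (edgeR adjusted p = 0.00706). The other members of this group have long arginine- and serine-rich tails. SRSF6 was at 210 and 211 CPM in OE-WT and at 196 and 203 CPM in CTRL (0.08 ± 0.06 on the log2 scale, edgeR adjusted p = 0.434). SRSF5 was at 158 and 166 CPM against 162 and 154 CPM, with overlapping groups. SRSF4 was at 58.0 and 61.5 CPM against 63.4 and 65.5 CPM, the lowest log2 fold change of the 33 genes (-0.11 ± 0.08, edgeR adjusted p = 0.335).

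The SR proteins with a single RNA recognition motif include the most abundant SRSF transcripts, and of these 4 genes 1 was called. SRSF3, the smallest family member and an adaptor for mRNA export, was at 470 and 453 CPM in OE-WT and at 433 and 430 CPM in CTRL (log2 fold change 0.10 ± 0.06, edgeR adjusted p = 0.307). SRSF2, a component of nuclear speckles that is mutated in myeloid malignancies, was at 282 and 288 CPM against 277 and 280 CPM (0.03 ± 0.06, edgeR adjusted p = 0.751). SRSF7, which carries a zinc knuckle beside its recognition motif and shares the export role of SRSF3, was at 206 and 206 CPM against 218 and 209 CPM (-0.05 ± 0.06, edgeR adjusted p = 0.630). None of these was called, which does not show that their levels were equal. SRSF8, a retrogene copy related to SRSF2, did rise: it was at 44.3 and 43.4 CPM against 34.0 and 38.6 CPM, a log2 fold change of 0.27 ± 0.09 (edgeR adjusted p = 0.0326). This call held in 3 of the 11 other settings tried, and it was lost without OE-WT 1, OE-WT 2 or CTRL 1 (0.18 without CTRL 1). No 50-base stretch of the SRSF8 transcripts was shared with SRSF2.

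The remaining SRSF genes are less typical of the family. SRSF10, a splicing repressor when dephosphorylated in heat shock, was at 66.6 and 52.1 CPM in OE-WT and at 43.7 and 51.5 CPM in CTRL. The groups nearly met, since OE-WT 2 stood just above CTRL 2, and the log2 fold change was 0.32 ± 0.10 (edgeR adjusted p = 0.0280). It was 0.13 without OE-WT 1 and 0.20 without CTRL 1, and not called in either case. DESeq2 did not call SRSF10 either (adjusted p = 0.161). SRSF11, a nuclear protein with an SR-type tail, was at 18.4 and 22.3 CPM against 17.5 and 21.5 CPM, with overlapping groups and a log2 fold change of 0.07 ± 0.13. SRSF12 had 0 counts in every library.

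The hnRNP A/B and D proteins carry tandem recognition motifs and a glycine-rich tail, and 6 of their 9 genes rose. HNRNPA2B1, which binds splicing silencers and sorts RNAs for transport, was at 305 and 281 CPM in OE-WT and at 195 and 240 CPM in CTRL. HNRNPA3, a relative of it, was at 195 and 181 CPM against 126 and 151 CPM. HNRNPAB, which also binds single-stranded DNA, was at 324 and 325 CPM against 252 and 261 CPM, the tightest replicates of the 3. In all of them the groups were separate, with log2 fold changes of 0.43 ± 0.08, 0.44 ± 0.08 and 0.34 ± 0.06 and edgeR adjusted p of 5.2e-04, 3.0e-04 and 5.3e-04. HNRNPA1, the best studied splicing silencer protein, was at 509 and 490 CPM against 403 and 457 CPM. Its log2 fold change was 0.22 ± 0.07 (edgeR adjusted p = 0.0308), among the smaller ones of the family. HNRNPA1 was not called without OE-WT 1 (0.19) or CTRL 1 (0.13), nor with DESeq2 (adjusted p = 0.0676).

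HNRNPD, also known as AUF1, binds AU-rich elements and promotes mRNA decay, and HNRNPDL is its paralogue. HNRNPD was at 77.3 and 64.2 CPM in OE-WT and at 55.7 and 60.5 CPM in CTRL, and HNRNPDL at 82.5 and 69.8 CPM against 56.3 and 68.9 CPM. Both had a log2 fold change of 0.28 ± 0.09, with edgeR adjusted p of 0.0218 and 0.0332. The lower OE-WT library came close to the higher CTRL library in both. Neither was called without OE-WT 1 (0.14 for HNRNPD, 0.16 for HNRNPDL) or without CTRL 1 (0.23 and 0.14). DESeq2 did not call them either (adjusted p = 0.15 for HNRNPD and 0.175 for HNRNPDL). HNRNPA0, another AU-rich element binder and the most abundant per length of the A/B genes that were not called, was at 194 CPM in both OE-WT libraries and at 176 and 172 CPM in CTRL (0.15 ± 0.06, edgeR adjusted p = 0.0911). The copies HNRNPA1L2 and HNRNPA1L3 lay at 1.31 and 1.97 CPM against 1.32 and 1.30 CPM, and at 4.53 and 5.31 CPM against 3.81 and 2.19 CPM. HNRNPA1L3 had the largest log2 fold change of all 33 genes, but also a large error (0.71 ± 0.26, edgeR adjusted p = 0.0588). Of the 50-base stretches of HNRNPA1L2 and HNRNPA1L3, 48.7% and 48.6% occurred also in HNRNPA1 transcripts, so reads of these genes cannot be fully told apart.

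HNRNPC, which binds uridine tracts and keeps cryptic exons out of mRNA, had the highest CPM of the members. It was at 637 and 660 CPM in OE-WT and at 558 and 533 CPM in CTRL, and rose by a log2 fold change of 0.25 ± 0.06 (edgeR adjusted p = 0.00803). Without OE-WT 2 (0.21) or CTRL 2 (0.22) it was not called. Its copies HNRNPCL1, HNRNPCL2, HNRNPCL3 and HNRNPCL4 had 0 counts in all libraries. Of the 50-base stretches of HNRNPCL4, 97% occurred also in HNRNPCL3, and how reads with several matches were counted is not given in the sources used here.

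All 4 genes of the hnRNP F/H group, whose proteins bind runs of guanines, rose, but HNRNPF and HNRNPH2 each kept their call in only 4 of the 11 other settings. HNRNPH1 was at 122 and 112 CPM in OE-WT and at 85.0 and 92.0 CPM in CTRL, and HNRNPH3 at 59.8 and 56.5 CPM against 40.8 and 47.3 CPM. Each gene was clearly separated between groups and had a log2 fold change of 0.40 (± 0.07 and ± 0.09, edgeR adjusted p = 3.8e-04 and 0.00182). HNRNPH2, the X-linked relative of HNRNPH1, was at 25.4 and 25.2 CPM against 18.6 and 21.0 CPM (0.35 ± 0.11, edgeR adjusted p = 0.0260). HNRNPF was the most abundant of the group, at 336 CPM in both OE-WT libraries and 295 and 286 CPM in CTRL, with a log2 fold change of 0.21 ± 0.06 (edgeR adjusted p = 0.0209). DESeq2 gave an adjusted p of 0.0521 for HNRNPF and 0.231 for HNRNPH2. HNRNPF was not called without OE-WT 1, OE-WT 2 or CTRL 2 (0.19 to 0.21), nor HNRNPH2 without OE-WT 1, OE-WT 2 or CTRL 1 (0.27 to 0.35).

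The K, L, M and R proteins differ in the RNA they bind, and 3 of these 5 genes rose. HNRNPK, whose KH domains bind cytosine-rich RNA and DNA, was at 481 and 476 CPM in OE-WT and at 377 and 383 CPM in CTRL. Its replicates lay close together in both groups, and the log2 fold change was 0.33 ± 0.06 (edgeR adjusted p = 6.4e-04). HNRNPM, a regulator of exon skipping at GU-rich sites, was at 151 and 139 CPM against 96.1 and 126 CPM (0.38 ± 0.09, edgeR adjusted p = 0.00446). Here CTRL 1 stood well below CTRL 2, and without CTRL 1 the gene was no longer called (0.20). HNRNPR, a relative of SYNCRIP, was at 40.1 and 33.6 CPM against 25.4 and 31.1 CPM (0.38 ± 0.11, edgeR adjusted p = 0.0147). HNRNPR was called in 6 of the 11 other settings, and not without OE-WT 1 (0.25), without CTRL 1 (0.24) or with DESeq2 (adjusted p = 0.130). The CA-repeat binder HNRNPL was at 184 and 193 CPM against 183 and 172 CPM, nearly touching groups with a log2 fold change of 0.09 ± 0.07 (edgeR adjusted p = 0.376). HNRNPLL, its paralogue, was at 37.2 and 36.7 CPM against 36.6 and 31.2 CPM (0.12 ± 0.10, edgeR adjusted p = 0.404).

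In the U group, HNRNPU and HNRNPUL1 rose. HNRNPU (ENSG00000153187, chr1:244840638-244864560, minus strand, GRCh38), known as scaffold attachment factor A for its binding of chromatin, was at 189 and 159 CPM in OE-WT and at 117 and 133 CPM in CTRL. Both groups spread, but they did not overlap, and the log2 fold change of 0.48 ± 0.08 was the largest among called HNRNP genes (edgeR adjusted p = 2.0e-04). HNRNPUL1 was at 257 and 253 CPM against 215 and 207 CPM (0.27 ± 0.06, edgeR adjusted p = 0.00381). HNRNPUL2, which like HNRNPUL1 acts in the repair of DNA breaks, was at 12.9 and 13.4 CPM against 12.5 and 12.5 CPM (0.07 ± 0.14, edgeR adjusted p = 0.771). The readthrough gene HNRNPUL2-BSCL2 had 0 counts, and with SRSF12 and the 4 HNRNPCL genes it made up the 6 members that were not tested. For SRSF12, 0 counts allow up to 0.290 CPM in a library before TMM scaling. The readthrough gene shares 2391 of its 4001 exon bases with HNRNPUL2 and 1610 with BSCL2, on the same strand. If reads that match several genes were dropped, 0 counts set no such limit for it, nor a firm one for the HNRNPCL genes.

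Summed over their members, the HNRNP genes took 0.401% and 0.405% of the OE-WT counts, against 0.346% and 0.356% of the CTRL counts. The SRSF genes took 0.172% and 0.177% against 0.173% and 0.172%. On the TMM scale the HNRNP sum was 4223 and 4106 CPM against 3329 and 3489 CPM, a ratio of 1.22, and the SRSF sum 1810 and 1794 CPM against 1662 and 1681 CPM, a ratio of 1.08. The SRSF sum thus differed on the TMM scale only, since its share of raw counts overlapped between the groups. The OE-WT libraries were shallower, and the raw counts of 12 of the 33 genes were lower in both OE-WT libraries than in both CTRL libraries. Among the 20 called genes, 2 had higher raw counts in both OE-WT libraries (SRSF1 and HNRNPH1) and 2 had lower ones (HNRNPA1 and HNRNPF), chosen for mention after their values were seen. Every difference is therefore relative to the rest of the library, and fewer transcripts of other genes cannot be told apart from more of these, nor cells of another state from a change in every cell.

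Per kilobase of exon, the CTRL levels spanned from 121 CPM per kb for HNRNPAB to 0.976 CPM per kb for HNRNPA1L2. After HNRNPAB came SRSF2 with 93.6, HNRNPF with 88.7, HNRNPC with 74.8, HNRNPK with 66.7, HNRNPA1 with 64.2 and SRSF3 with 60.6 CPM per kb. SRSF1, with 11.9, and HNRNPU, with 5.55 CPM per kb, ranked 18 and 27 of the 33 by this measure. In OE-WT, HNRNPF stood at 103 and SRSF2 at 95.8 CPM per kb, so these neighbours changed places. The exon length used is the union of all annotated exons, which understates genes with long rarely used exons. The median level of the members was 149 CPM, against 12.7 CPM for all genes tested.

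As families, the genes stand apart in other features that the choice of members did not use. The median GC content of a gene's longest annotated transcript was 40.4% for SRSF and 42.7% for HNRNP genes. It was 48.9% for the tested genes with a value. These are medians, and single members can differ. With a trend on GC content removed in each library, 11 members were called. GENCODE lists at least 1 transcript subject to nonsense-mediated decay for 25 of the 33 tested members (75.8%) and for 47.9% of the 11663 protein-coding genes tested. The median log2 fold change was 0.27 for these 25 members and 0.33 for the 8 without such a transcript. Counts per gene do not separate these transcripts, so a shift between productive and decaying forms was not measured.

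Some of the exons are shared with other genes. Exons of 12 members overlap a gene on the opposite strand and those of 11 a gene on the same strand, 18 members in all, while 8 of the 20 called members have neither. The kit named in the labels keeps the strand, but whether the counting used it is not given. HNRNPA3 shares 53.6% of its exon length with NFE2L2, which encodes the antioxidant factor NRF2, on the other strand. NFE2L2 had 229 and 185 counts against 222 and 268 counts (log2 fold change 0.08 ± 0.14), far fewer than HNRNPA3 with 1936 and 1845 against 1623 and 1861 counts. SRSF9 shares 43.6% with GATC, a subunit of a mitochondrial amidotransferase, which was itself higher in OE-WT (0.25 ± 0.07, edgeR adjusted p = 0.0117). HNRNPA2B1 shares 9.57% with NFE2L3, which was lower (-0.52 ± 0.07, edgeR adjusted p = 1.1e-05), and 2.92% with CBX3, which was higher (0.30 ± 0.08, edgeR adjusted p = 0.00744). SRSF1 shares 32.7% with ENSG00000266086 on its own strand, which had 0 counts in every library. It also shares 7.61% with ENSG00000279069 on the other strand, which was higher (0.46 ± 0.13, edgeR adjusted p = 0.0184). HNRNPM shares 6.15% with ENSG00000279827, also on the other strand and higher (0.63 ± 0.16, edgeR adjusted p = 0.00787). The part of these overlaps in the results was not tested.

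Noncoding genes and pseudogenes with SRSF or HNRNP symbols numbered 138, of which 41 had at least 1 count and 5 were tested. Those of the HNRNP family summed to 72.9 and 80.0 CPM in OE-WT and 61.3 and 64.3 CPM in CTRL. The 3 highest were HNRNPK-AS1, HNRNPA1P7 and HNRNPCP2. HNRNPK-AS1 had a log2 fold change of 0.36 ± 0.09 (edgeR adjusted p = 0.00699, DESeq2 adjusted p = 0.0950), but 309 of its 390 exon bases lie opposite exons of HNRNPK, itself at 0.33, and without a stated strand setting reads of this pair cannot be told apart, while HNRNPA1P7 (0.00 ± 0.15) and HNRNPCP2 (0.25 ± 0.18) were not called. These pseudogenes share 69.5% and 53.6% of their 50-base stretches with HNRNPA1 and HNRNPC transcripts.

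**Figure D3:**
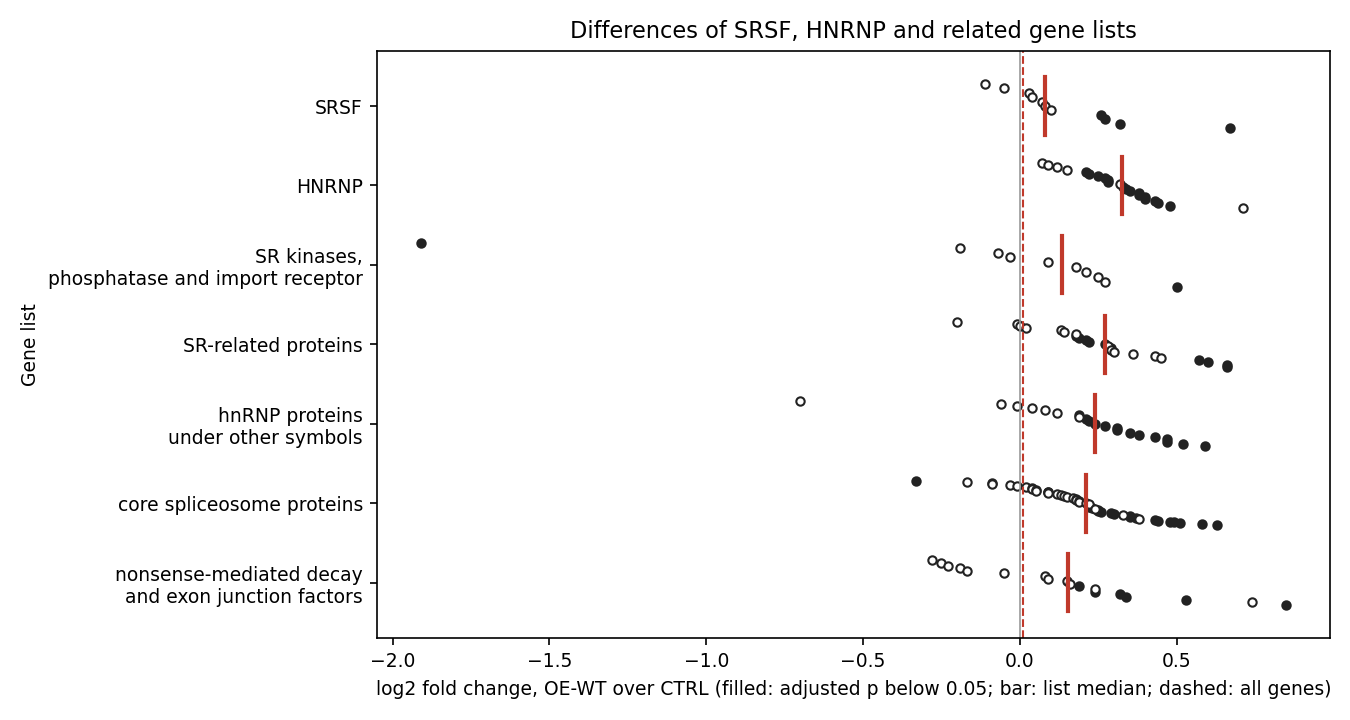
Log2 fold change of OE-WT over CTRL for each tested gene of the SRSF and HNRNP families and of 5 related lists. Filled points have an adjusted p below 0.05, red bars are list medians, and the dashed line is the median of all genes. The medians run from 0.08 for SRSF to 0.33 for HNRNP, and the filled point far to the left is CLK4 at -1.91.

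Genes that work with these proteins were read from 5 lists, whose counts stand against the 9.44% of all genes called higher and 11.6% called lower. One list held hnRNPs with other symbols, a nuclear import receptor of theirs and RNA-binding proteins of other families, such as ELAVL1, MSI2, FUBP1 and FUBP3. In this mixed list 14 of 21 tested genes rose and 0 fell, with a median log2 fold change of 0.24. ELAVL1, MSI2 and FUBP3 were among those that rose, and FUBP1 was not called. At an unadjusted p below 0.05, 0 were lower in edgeR, and DESeq2 called 8 higher and 0 lower. SYNCRIP, a relative of HNRNPR, rose by 0.59 ± 0.08 (edgeR adjusted p = 3.4e-05), TAF15 by 0.52 ± 0.09 and PTBP3, a relative of the polypyrimidine tract binding protein, by 0.47 ± 0.09. In SYNCRIP the levels were 76.8 and 66.5 CPM in OE-WT against 45.2 and 49.9 CPM in CTRL. Of the 23 SR-related proteins, which carry similar tails but are no SRSF genes, 10 rose and 0 fell, with a median of 0.27. DESeq2 called 2 higher (U2SURP and THRAP3) and 0 lower here, and 0 were lower at an unadjusted p below 0.05 in edgeR. The DESeq2 adjusted p was 0.0808 for BCLAF1 and 0.229 for SCAF11. With library size only 4 genes of this list were called, and 4 without a filter beyond 1 count, all higher. The largest changes were those of U2SURP (0.66 ± 0.14), BCLAF1 (0.66 ± 0.16), SCAF11 (0.60 ± 0.18) and THRAP3 (0.57 ± 0.09), of which SCAF11 was not called without OE-WT 1 (0.50) or CTRL 1 (0.53). THRAP3, a partner of BCLAF1 in splicing and export, was at 69.9 and 68.4 CPM against 42.0 and 50.9 CPM (edgeR adjusted p = 5.9e-05).

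Among 47 core spliceosome proteins, 19 rose and 1 fell, with a median of 0.21. DESeq2 called 7 higher and 0 lower, and with library size only 9 were higher and 2 lower. CDC5L, of the Prp19 complex, rose by 0.63 ± 0.16, the helicase AQR by 0.58 ± 0.17, the tri-snRNP protein PRPF31 by 0.51 ± 0.09 and the U2 protein SF3A3 by 0.49 ± 0.07. The gene that fell was DDX39B, a helicase of early splicing and export (-0.33), named after its value was seen. DESeq2 called none of CDC5L, AQR and DDX39B (adjusted p = 0.0927, 0.166 and 0.0893). CDC5L was also lost without CTRL 1 (0.47), as was DDX39B, and AQR without OE-WT 1 (0.41) or CTRL 1 (0.44). In SF3A3 the libraries stood at 119 and 116 CPM against 82.9 and 84.6 CPM (edgeR adjusted p = 2.4e-05). Of 18 factors of nonsense-mediated decay and the exon junction complex, 6 rose and 0 fell (median 0.16), led by UPF2 (0.85 ± 0.29), SMG1 (0.53 ± 0.16), DHX34 (0.34 ± 0.11) and MAGOH (0.32 ± 0.09). These last calls were weak, with edgeR adjusted p between 0.0138 and 0.0420, and DESeq2 made 0 calls in this list. The split turned round under another scaling, to 1 higher and 5 lower with library size only, and it was 2 higher and 1 lower with the GC trend removed. No call of the list was left without CTRL 1, and 1 without OE-WT 1. At an unadjusted p below 0.05 the list held 7 higher and 5 lower genes in edgeR and 4 higher and 0 lower in DESeq2.

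Of the 10 tested kinases and other regulators of SR proteins, 1 rose and 1 fell, with a median of 0.13, a share near that of all genes in each direction. SRPK1, the main cytoplasmic SR kinase, was at 44.3 and 39.4 CPM in OE-WT and at 29.3 and 30.0 CPM in CTRL, a log2 fold change of 0.50 ± 0.09 (edgeR adjusted p = 5.4e-04). CLK4, a nuclear kinase of the same proteins, had 18 and 16 counts in OE-WT against 71 and 90 in CTRL. With 1.81 and 1.57 CPM against 5.52 and 7.31 CPM, it was far lower in both OE-WT libraries, and the log2 fold change was -1.91 ± 0.27 (edgeR adjusted p = 2.6e-05). Its relatives CLK1, CLK2 and CLK3 were not called (0.09 ± 0.21, -0.03 ± 0.14 and -0.19 ± 0.08).

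**Figure D4:**
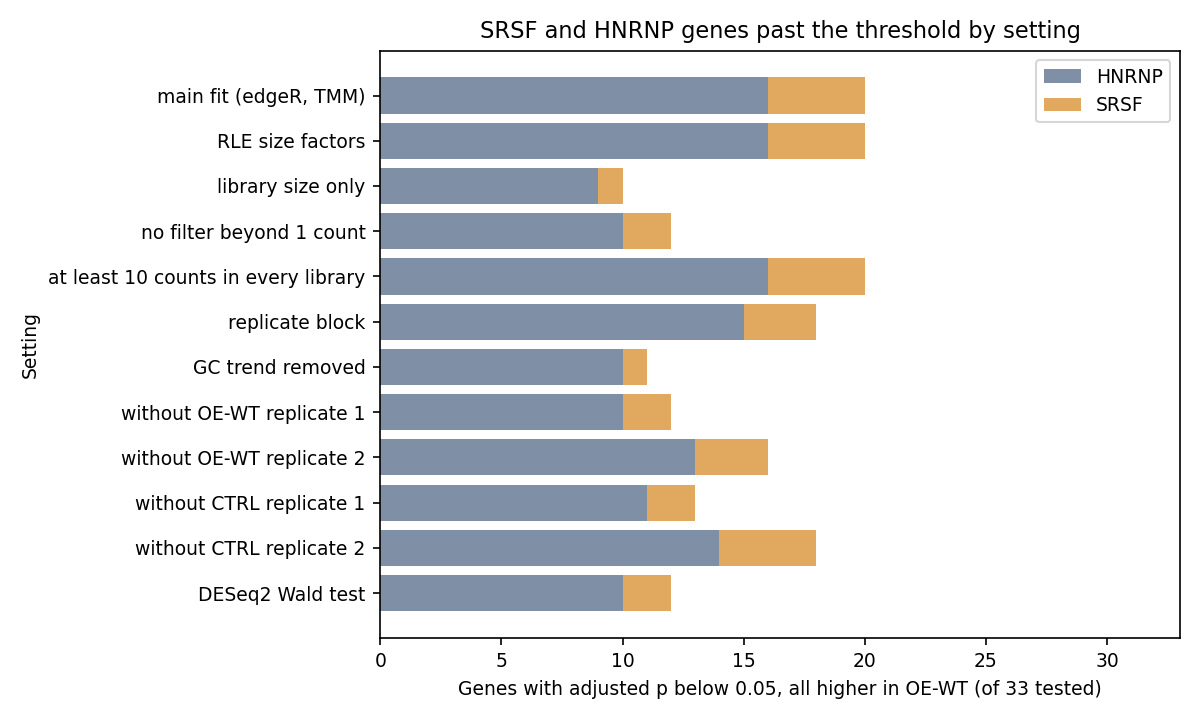
Number of SRSF (orange) and HNRNP (grey-blue) genes with an adjusted p below 0.05 under the main analysis and 11 other settings, as stacked bars from 0 on an axis that ends at the 33 genes tested. All calls were higher in OE-WT, and the count ran from 10 with library size only to 20.

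The size of the called set depended on the setting, and the direction of its genes did not in the settings tried. Of all 33 genes, 31 had a positive value in the main fit, 25 with library size only and 26 with the GC trend removed. In each of the 11 other settings all member calls were higher in OE-WT, and 8 genes were called in every one: SRSF1, HNRNPA2B1, HNRNPA3, HNRNPAB, HNRNPH1, HNRNPH3, HNRNPK and HNRNPU. HNRNPM missed only without CTRL 1 and HNRNPUL1 only with library size as the sole scaling. The other 10 called genes held in between 3 (SRSF8) and 9 (SRSF9) of the 11 settings. Of the 33 genes, 23 had a positive log2 fold change in all fits, the 20 called ones among them. Scaling by library size alone lowered the median of all genes to -0.08, left 10 members called and shifted the whole table from 1334 higher and 1642 lower genes to 733 higher and 2451 lower. Under that scaling the HNRNP calls numbered 9 and the SRSF calls 1. Without OE-WT 1, 12 members were called, and without CTRL 1, 13.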

How the data were processed

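RNA-seq libraries of DLD1 cells (2 OE-WT, 2 CTRL) were analysed from the deposited table of raw counts per Ensembl gene, which has 1 column for the 2 lanes of each library. The labels give poly(A) selection and a stranded kit. The methods give removal of ribosomal RNA, Cutadapt, HISAT2 to GRCh38 and HTSeq, and speak of triplicates, whereas the submitters' processing notes list HISAT2 2.2.1, featureCounts 2.0.0 and DESeq2 1.34.0. The annotation release and the strand and multi-mapping settings are not given in the sources used here. Symbols, biotypes, exons and GC content came from GENCODE 44 (57532 of 58302 identifiers matched) and promoters from RefSeq GRCh38.p14.

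Genes passing filterByExpr (minimum count 10, 14133 genes) were scaled by TMM and tested with the quasi-likelihood F-test of edgeR 4.0.16 in R 4.3.3, with Benjamini-Hochberg adjustment over all genes and a threshold of 0.05. The standard error is the log2 fold change over the root of F. CPM values are TMM-scaled. The code was tested on simulated data. The other settings were RLE size factors, library size only, 2 other count filters, a replicate block, a GC trend removed (lowess span 0.3), each library left out in turn, and DESeq2 1.42.0. Same-numbered libraries did not deviate together (r = -0.068), so no pairing was used. Members that passed the test and the most abundant others were described, with 4 genes per related list, of which 1 is not reported here, and 3 noncoding genes. The members and lists were chosen with earlier results of these data known.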

Additional observations from a re-analysis of the deposited data

How the results depend on the processing

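The 20 member calls became 10 with library size only, 12 without a filter beyond 1 count, 11 with the GC trend removed, 12 with DESeq2's Wald test, and 12 to 18 when each library was left out in turn, where the lone library of an arm was assumed to vary like the other group. With the replicate block 18 members were called, 17 of them among the 20; SRSF8, HNRNPA1 and HNRNPF were lost and HNRNPA1L3 was gained. The SRSF median log2 fold change of 0.08 turned to -0.02 with library size only and to -0.03 with the GC trend removed, and ranged from 0.06 to 0.10 without single libraries; the HNRNP median stayed between 0.24 and 0.36 in all 11 settings. The 52 calls in the related lists (50 higher, 2 lower) became 31 with library size only (22 higher, 9 lower), 27 without a filter beyond 1 count, 19 with DESeq2 and 23 to 42 with a library left out. Over the whole table, 2976 calls became 1211 with DESeq2 and 1923 to 2721 with a library left out, lowest without CTRL replicate 1. Single genes lost their call in 93 gene and setting pairs and gained one in 2; none changed sign while called. RLE size factors and a minimum of 10 counts in every library changed no call of a named gene. The cause of these shifts was not tested. UPF2 has no DESeq2 adjusted p. Depth limits HNRNPA1L2 most, with 13 to 20 counts a library.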
